A study of Homo sapiens with 2 samples.

Results

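The tubulins described here are 10 genes of the protein that builds microtubules, 6 of the beta family (TUBB1, TUBB2A, TUBB2B, TUBB3, TUBB4B and TUBB6) and 4 of the alpha family (TUBA1A, TUBA1B, TUBA1C and TUBA4A). They were chosen on their values in these data, since TUBB1 was among the strongest decreases, so the differences are given as a description. All 20 probe sets that the platform annotation gives to these genes were included, of 54675 on the array, and each of the 10 genes had at least 1 probe set of its own, of 19775 such genes in all. HepG2, an established human line from a hepatocellular carcinoma, was exposed for 18 h to 218 μg/ml of PADMA28, an Indo-Tibetan polyherbal remedy applied as an ethanolic extract, or to 0.9% ethanol (EtOH), the solvent control. RNA came from the combined cells of 3 cultures, and 1 Affymetrix Human Genome U133 Plus 2.0 array was used per treatment, so there is no spread between samples, no test was possible and no SD is given.

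Microtubules are hollow polymers of alpha- and beta-tubulin dimers that form the mitotic spindle, carry vesicle transport and shape the cell. The human genome holds several genes, called isotypes, for either subunit, and these differ mainly in their acidic C-terminal tails and in the tissues that use them. TUBB1 is the most divergent beta isotype and is best known from megakaryocytes and platelets, where it forms the marginal band. Its transcript was therefore set beside the other isotypes, the proteins that fold, modify and bind tubulin, and marker genes of platelets.

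To show where the members at both ends of the range of differences start, the 250 bases before their RefSeq start sites are given 5′ to 3′ in GRCh38.p14. TUBB1 and TUBB2A had the lowest differences and TUBB6, with 2 annotated starts, the highest. Capitals mark matches, on either strand, to any of 8 motifs, whose letters are spelled out with the counts after the sequences, where adjacent or overlapping matches run together.
TUBB1, chr20:59019179-59019428, plus strand: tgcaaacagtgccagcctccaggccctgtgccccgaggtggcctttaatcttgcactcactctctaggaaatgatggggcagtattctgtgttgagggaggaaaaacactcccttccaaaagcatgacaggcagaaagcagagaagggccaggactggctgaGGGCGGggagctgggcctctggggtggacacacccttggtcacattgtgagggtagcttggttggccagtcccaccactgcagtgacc
TUBB2A, chr6:3157545-3157794, minus strand: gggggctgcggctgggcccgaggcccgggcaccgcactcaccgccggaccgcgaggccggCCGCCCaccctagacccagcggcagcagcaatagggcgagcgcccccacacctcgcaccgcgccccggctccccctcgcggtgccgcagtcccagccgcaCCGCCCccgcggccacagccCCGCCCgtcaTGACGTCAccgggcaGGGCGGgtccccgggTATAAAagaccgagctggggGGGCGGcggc
TUBB6, first start, chr18:12307419-12307668, plus strand: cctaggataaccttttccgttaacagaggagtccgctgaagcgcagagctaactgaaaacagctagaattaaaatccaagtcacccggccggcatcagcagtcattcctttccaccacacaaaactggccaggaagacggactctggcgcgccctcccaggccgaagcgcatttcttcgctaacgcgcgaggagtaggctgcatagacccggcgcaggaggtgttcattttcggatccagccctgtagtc
TUBB6, second start, chr18:12307991-12308240, plus strand: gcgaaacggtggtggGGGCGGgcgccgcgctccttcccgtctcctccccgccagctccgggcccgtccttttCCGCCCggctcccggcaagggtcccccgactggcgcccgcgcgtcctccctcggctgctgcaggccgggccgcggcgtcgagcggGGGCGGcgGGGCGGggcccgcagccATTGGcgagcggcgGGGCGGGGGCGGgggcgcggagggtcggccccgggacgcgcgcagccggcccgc

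The TUBB1 window held a single match, the GC box bound by Sp1 (GGGCGG), and 57.6% of its bases were G or C. The GC content of the other 13 windows of the member genes lay between 47.2% and 83.6%, and the median of all 35116 windows was 58.0%. GC boxes were found in 8 of the 14 member windows and in 42.6% of all windows, and the CCAAT box in 8 of the 14, belonging to 6 genes, and in 32.0% of all windows. The core of the antioxidant response element, TGACNNNGC, was present in 10.9% of all windows and among the members only before the first start of TUBB3. The same TUBB3 window was the only member window with the core bound by AP-1 and NF-E2, TGAGTCA, which 4.2% of all windows held. The core of the xenobiotic response element, GCGTG, was found for TUBB2B and TUBA4A and in 32.2% of all windows. TUBB2A alone among the members held the cAMP response element, TGACGTCA, found in 1.6% of all windows, and likewise the TATA box in the form TATAAA, found in 10.7%. The GATA site, written here as AGATAA, was found in 9.2% of all windows and in those of 0 of the 10 genes. These are matches of letters in short windows. The TUBB1 window lies inside the annotated gene, which spans chr20:59016438-59026654, so further starts of TUBB1 are not covered by it.

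TUBB1 was lower with PADMA28 on both of its probe sets. The brighter one (230690_at) had a log2 expression value of 9.23 with PADMA28, against 11.04 with EtOH, a log2 difference of -1.81 or 3.50-fold lower. The other one (208601_s_at) was at 8.07 with PADMA28, against 9.98 with EtOH, a difference of -1.91 or 3.76-fold lower. All 4 values were well above background, which was set at 2 log2 units over the most frequent value of an array, 4.35 on the PADMA28 array and 4.25 on the EtOH array. The platelet isotype was thus measured well above background in HepG2 cells under both treatments. Whether fewer cells carried the transcript or each cell carried less of it cannot be told apart in RNA of pooled cells.

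The 2 probe sets of TUBB1 differed from each other by 0.10 log2 units in their response. Over 4912 genes with at least 2 probe sets of their own above background on both arrays, the median gap between the 2 brightest was 0.14, and 38.1% of the genes had a gap no larger than that of TUBB1. Of 10523 genes with at least 2 probe sets of their own, 16 had all of them more than 2-fold lower, TUBB1 among them. By its brighter probe set TUBB1 was the gene with the eighth lowest difference among all 19775 genes, and with the fifth lowest among the 10186 above background on both arrays.

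**Figure D1:**
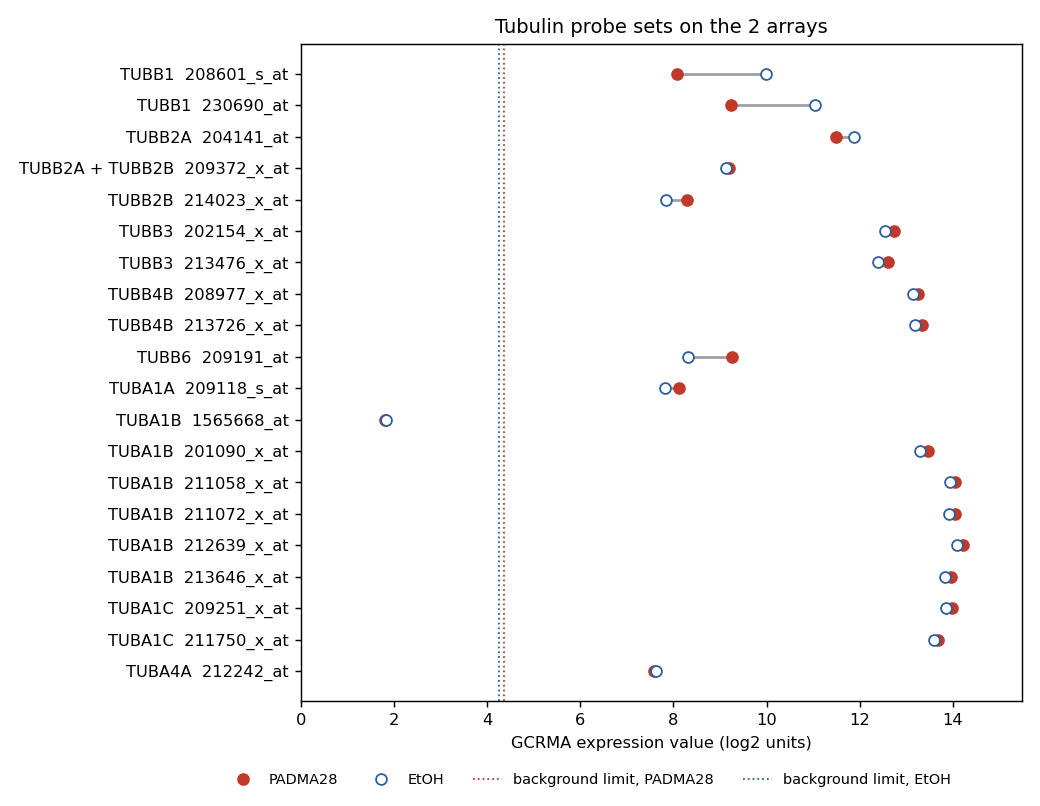
Log2 expression value (GCRMA, horizontal axis) of each of the 20 probe sets of the 10 tubulin genes, listed down the page, on the PADMA28 array (filled red) and on the EtOH array (open blue), with 1 array per treatment. Grey lines join the 2 values of a probe set and dotted lines mark the background limits; the 2 TUBB1 probe sets show the widest gaps, at -1.91 and -1.81, and the TUBA1B probe set 1565668_at lies below both limits.

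Among the 10 genes, TUBB1 was the only one past 2-fold, with 1 lower and 0 higher, and among their 20 probe sets 2 were lower and 0 higher. Over all genes 0.384% were more than 2-fold lower, 0.875% more than 2-fold higher and 1.26% either. Among genes above background on at least 1 array these shares were 0.705%, 1.57% and 2.28%, and among all probe sets 0.412%, 0.646% and 1.06%. The brightest probe set of a gene, by its mean over both arrays, stands for the gene throughout. The median difference of the 10 genes was 0.14, against 0.06 for the 10361 genes above background on at least 1 array, and without TUBB1 it was 0.15 over 9 genes. All 10 genes were above background on both arrays, as were 19 of the 20 probe sets.

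The class II beta-tubulins, TUBB2A and TUBB2B, which are best known from neurons, lie within 74.0 kb of each other on chromosome 6. TUBB2A had the second lowest difference of the 10 genes, with 11.49 with PADMA28 and 11.88 with EtOH, or -0.38 (204141_at). TUBB2B was at 8.29 with PADMA28 and at 7.83 with EtOH, a difference of 0.46 (214023_x_at). A probe set annotated to both genes (209372_x_at) was at 9.19 with PADMA28 and 9.13 with EtOH, a difference of 0.06. These neighbouring genes thus had differences of opposite sign on their own probe sets, both smaller than 2-fold. The TUBB2B probe set is of a type with probes nearly identical to other sequences, so transcripts of close relatives may add to its value.

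TUBB6, the class V beta isotype, had the highest difference of the 10 genes, just under the 2-fold limit. Its only probe set (209191_at) was at 9.25 with PADMA28 and at 8.32 with EtOH, which is 0.93 on the log2 scale or 1.91-fold higher. It ranked 189 from the highest among the 10361 genes above background on at least 1 array. TUBB1 and TUBB6 were the farthest apart of the beta isotypes, in opposite directions.

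TUBB3, the class III isotype used as a marker of neurons, and TUBB4B, a class IV isotype found in most tissues, differed little. The probe sets of TUBB3 were at 12.74 and 12.62 with PADMA28 and at 12.54 and 12.39 with EtOH, differences of 0.20 and 0.23. Those of TUBB4B were at 13.26 and 13.34 with PADMA28 and at 13.15 and 13.18 with EtOH, differences of 0.11 and 0.15. All 4 probe sets are of the _x_at type, which the manufacturer uses where some probes are nearly identical to other sequences, so transcripts of related isotypes may add to these values. Of 8 neuron markers other than TUBB3, 7 were below background on both arrays, and SYP, a protein of synaptic vesicles, was at 4.88 with PADMA28 and at 4.45 with EtOH.

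Of the alpha-tubulins, TUBA1A, TUBA1B and TUBA1C lie together within 146.8 kb on chromosome 12 and code for nearly identical proteins. TUBA1A, the isotype of developing neurons, was at 8.13 with PADMA28 and 7.83 with EtOH, a difference of 0.30 on its only probe set (209118_s_at). The ubiquitous TUBA1B, by its brightest probe set (212639_x_at), was at 14.21 with PADMA28 and 14.10 with EtOH, and TUBA1C (209251_x_at) at 13.98 with PADMA28 and 13.87 with EtOH. The 7 _x_at probe sets of TUBA1B and TUBA1C together had differences between 0.09 and 0.16, a range of 0.07. A further TUBA1B probe set (1565668_at) was below background on both arrays, at 1.81 with PADMA28 and 1.82 with EtOH.

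TUBA4A, an alpha isotype that is also abundant in platelets, stayed close to its EtOH value. It was at 7.59 with PADMA28 and at 7.62 with EtOH, a difference of -0.03 (212242_at). TUBA4B, a neighbouring tubulin gene that starts on the other strand, was below background on both arrays, at 3.76 with PADMA28 and 3.87 with EtOH.

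Across the 20 probe sets, 13 are of the _x_at type and had differences between 0.06 and 0.46, with a median of 0.13. Without the _x_at and _s_at probe sets 5 genes remained, and their median difference was -0.03. TUBA1C, TUBB2B, TUBB3 and TUBB4B have only _x_at probe sets of their own, so their transcripts were not separated from those of close relatives. TUBA1A has only an _s_at probe set, the type of the second TUBB1 probe set. Whether this type separates close relatives was not checked. TUBB1, TUBB2A, TUBB6 and TUBA4A each have a probe set of neither type, and TUBA1B had only the dim probe set left.

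**Figure D2:**
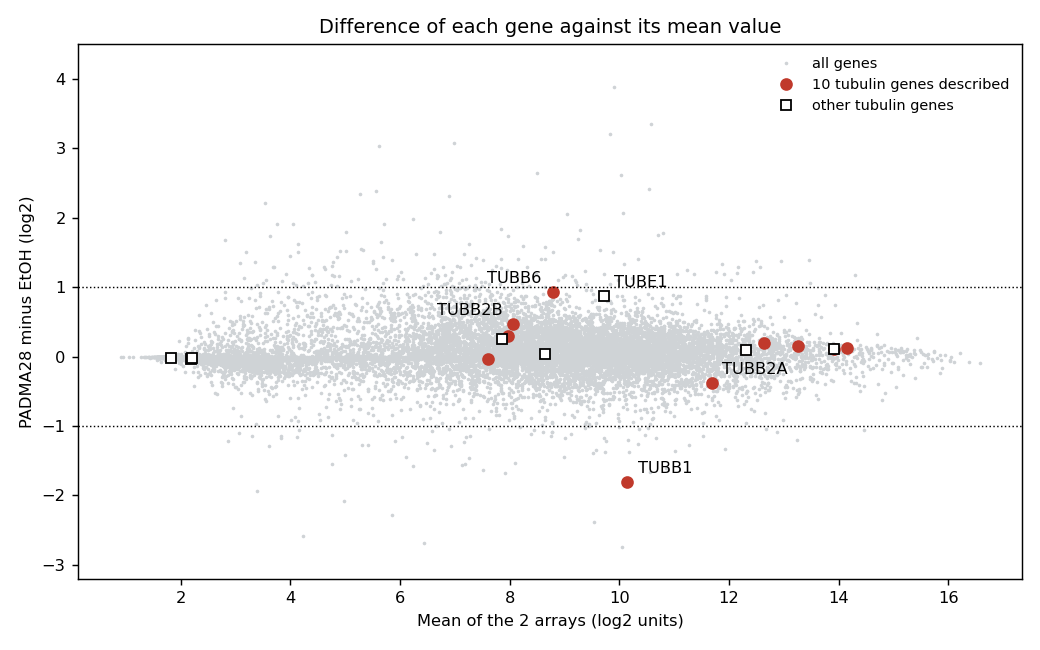
Log2 difference, PADMA28 minus EtOH (vertical axis), of each gene against the mean of its log2 values on the 2 arrays (horizontal axis), with 1 array per treatment. Grey points are all genes, of which 3 lie above the plotted range, red points are the 10 tubulin genes, open squares are other tubulin genes and dotted lines mark 2-fold; TUBB1 lies at -1.81, TUBB6 and TUBE1 lie just under 2-fold higher, and the other tubulins lie closer to 0.

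No tubulin gene outside the 10 passed 2-fold. Of 12 such genes 8 had a probe set of their own, of which 5 were above background. By their brightest probe sets all 5 had differences above 0, as did 58.1% of all genes above background. For TUBB and TUBD1 that probe set was of the _x_at type. TUBB, the class I beta-tubulin of most dividing cells, was at 13.98 with PADMA28 and 13.87 with EtOH on its brightest probe set. Of its 3 probe sets, those of the _x_at type had differences of 0.11 and 0.13, and the other one had -0.10. TUBE1, the epsilon-tubulin of centrioles, was at 10.15 with PADMA28 and 9.28 with EtOH, 0.87 or 1.83-fold higher. A second TUBE1 probe set did not exceed background on either array. The gamma-tubulins TUBG1 and TUBG2, which nucleate microtubules, had differences of 0.10 and 0.26. The delta-tubulin TUBD1 had 0.04 on an _x_at, 0.23 on an _s_at and -0.06 on the last of its 3 probe sets. TUBB4A, TUBA8 and TUBAL3 were below background on both arrays. Probe sets shared by TUBA3C and TUBA3D had differences of 0.0037 and 0.12.

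Tubulin needs dedicated chaperones before it can polymerise, and these differed little. The list of TBC cofactors, which assemble the alpha-beta dimer, also held the related TBCEL and the partner ARL2. Its 7 genes had a median difference of 0.0051, with 0 past 2-fold. ARL2 was highest at 0.33, on an _x_at probe set. TBCD was lowest at -0.37, while another of its probe sets above background was at -0.0072. The 7 measured subunits of the CCT chaperonin, which folds nascent tubulin and actin, lay between -0.17 (CCT6A) and 0.23 (CCT4), with a median of 0.09. The 5 measured subunits of prefoldin, which delivers tubulin to CCT, lay between -0.0092 and 0.28 (PFDN5), with a median of 0.20.

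Cells adjust tubulin mRNA to the amount of free dimer by degrading it during translation, through the ribosome-bound factor TTC5, its partner SCAPER and the CCR4-NOT deadenylase. Of 6 genes of this mechanism 0 passed 2-fold and the median difference was -0.02. TTC5 was at 7.97 with PADMA28 and 7.63 with EtOH, a difference of 0.35. SCAPER was at 7.21 with PADMA28 and 7.48 with EtOH, a difference of -0.27 on its brightest probe set, of the _x_at type. A second SCAPER probe set above background was at 0.02. CNOT11, the subunit that SCAPER binds, had a difference of -0.02.

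Tubulin-modifying enzymes were measured by 24 genes, of which 14 were above background on both arrays, with a median of 0.03 over these. None of the 14 passed 2-fold. TTL, which adds tyrosine back to the tail of alpha-tubulin, was at 9.94 with PADMA28 and 9.33 with EtOH, a difference of 0.61, and a second probe set was at 0.44. SIRT2, a tubulin deacetylase, had 0.60 on its brightest probe set and -0.61 on another that was below background with PADMA28. AGBL3, a carboxypeptidase that trims tubulin tails, was lowest at -0.71 on an _x_at probe set, with its other probe sets below background. TTLL11, a polyglutamylase, was below background on both arrays, at 3.71 with PADMA28 and 2.58 with EtOH, so no fold change is given.

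Among microtubule-associated proteins, MAP1B was the only gene past 2-fold by brightest probe set, with 1 higher and 0 lower of 34 measured. Of all genes, 0.875% were more than 2-fold higher and 0.384% more than 2-fold lower. MAP1B, a stabiliser known from growing axons, was at 9.75 with PADMA28 and 8.67 with EtOH, 2.11-fold higher, and its 3 probe sets had differences of 1.08, 0.98 and 0.56. The severing enzyme KATNA1 was at 9.30 with PADMA28 and 8.55 with EtOH, a difference of 0.76. CLIP1, which tracks growing microtubule ends, had differences of 0.65, 0.95 and 1.20 on the 3 probe sets above background. The last of these was past 2-fold but was not the brightest probe set of CLIP1. FIGN, another severing enzyme, named after its values had been seen, ran the other way, with differences between -0.65 and -0.48 on its 4 probe sets. The median over the 25 associated proteins above background was 0.09.

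The gamma-tubulin ring complex, which seeds microtubules, and the kinesin and dynein motors, which move along them, were close to their EtOH values. In the ring complex 0 of 8 passed 2-fold. The lowest was MZT2B at -0.36, on an _x_at probe set, and the highest NEDD1 at 0.28. TUBGCP6, at -0.21, was below background with PADMA28. Of 20 motor genes 0 passed 2-fold, with DYNC1LI1 at 0.32, DYNC1I2 at 0.19 and KLC1 at -0.19. Over the 8 lists of folding, modification, binding, nucleation and transport together, 89 of 111 measured genes were above background. Of these 59.6% were above 0, against 58.1% of all genes above background, and 7.87% were higher by more than 0.5 log2 units, against 9.06%. On the lower side 3.37% were past 0.5, against 4.02%, and none reached the size of the TUBB1 decrease, the lowest being AGBL3 at -0.71. In shares past these limits the microtubule genes were thus close to all genes.

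**Figure D3:**
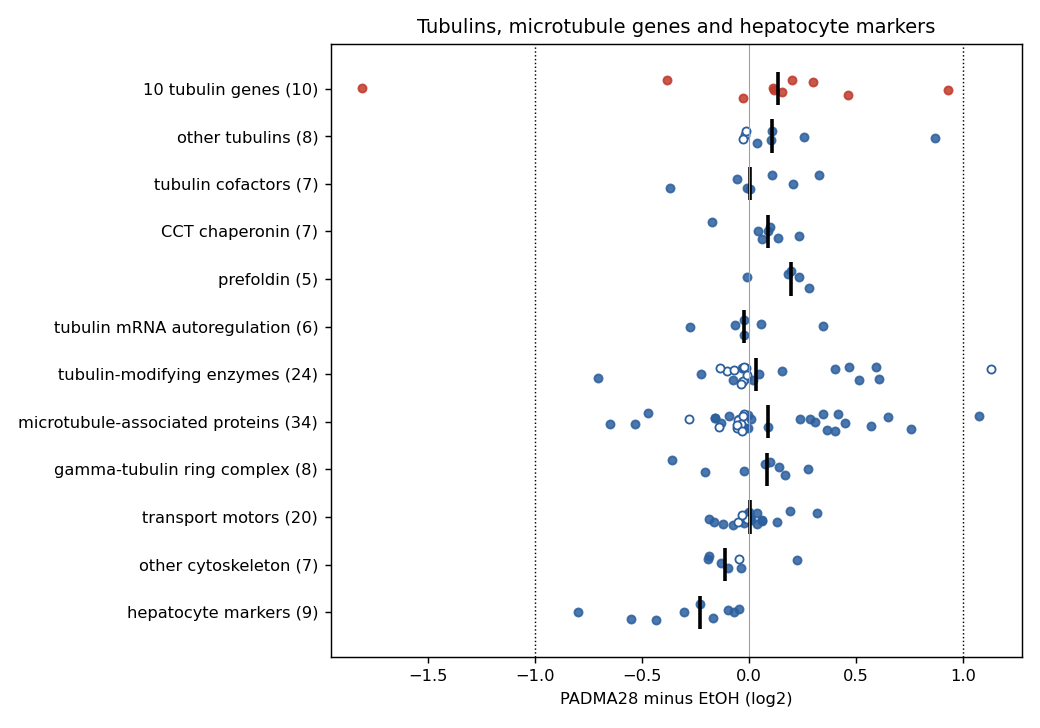
Log2 difference, PADMA28 minus EtOH (horizontal axis), of single genes (points) in 12 lists, whose measured genes are counted in brackets, with 1 array for either treatment. Open points did not exceed background on any array, black bars are medians over the genes above background and dotted lines mark 2-fold. TUBB1 at -1.81 is the only point to the left of -1, and the 9 measured genes of the chosen hepatocyte list lie below 0.

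Markers of platelets were not detected beside TUBB1. All 10 measured genes of megakaryocytes and platelets were below background on both arrays, between 1.82 and 2.98 with PADMA28 and between 1.83 and 3.19 with EtOH. They included the platelet chemokine PF4, at 2.17 with PADMA28 and 2.18 with EtOH, and the glycoprotein gene GP9, at 1.82 with PADMA28 and 1.83 with EtOH. NFE2, a transcription factor that drives TUBB1 in megakaryocytes, was at 2.34 on both arrays, and GATA1 at 2.29 with PADMA28 and 2.31 with EtOH. Summed over the 10 genes, the log2 value was 5.82 with PADMA28 and 5.89 with EtOH, which is a sum of values below background and not a measured level.

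The 9 measured genes of a chosen list of 10 hepatocyte markers, by contrast, were abundant. All 9 had differences below 0, with a median of -0.23 and 0 past 2-fold. This shared sign is that of the list, since apolipoprotein genes outside it went either way, such as APOC3 at 0.13 and APOA2 at -0.14. Of all genes above background 58.1% had differences above 0, with a median of 0.06. ALB was at 16.52 with PADMA28 and 16.62 with EtOH, AFP at 15.73 with PADMA28 and 15.96 with EtOH, and FOXA2, a liver transcription factor, at 10.52 with PADMA28 and 11.32 with EtOH, a difference of -0.80. Transthyretin TTR and fibrinogen FGB had -0.44 and -0.55. The summed log2 level of the 9 markers was 18.50 with PADMA28 and 18.67 with EtOH. Their part in the difference of TUBB1 was not tested. In a short list of other cytoskeleton genes, the 7 measured were between -0.19 (LMNA) and 0.22 (LMNB1), a range that holds for this list only. ACTB was at -0.10, KRT18 at -0.13 and KRT19 at -0.19, and VIM was below background on both arrays.

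No neighbour of TUBB1 on chromosome 20 that was above background passed 2-fold. Of 10 other protein-coding genes within 500 kb, 9 were measured and 6 were above background on both arrays, with differences between -0.52 (NPEPL1) and 0.20 (PRELID3B). ATP5F1E, a subunit of ATP synthase on the opposite strand whose annotated span overlaps that of TUBB1 by 1180 bases, was at 14.20 with PADMA28 and 14.27 with EtOH, a difference of -0.07. CTSZ, the cathepsin gene 9184 bases before TUBB1, was below background on both arrays, as were ZNF831 and EDN3, so a decrease of these 3 could not have been seen. NELFCD, farther out on the same side as CTSZ, had -0.09. On the other side, PRELID3B was at 9.75 with PADMA28 and 9.55 with EtOH.

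**Figure D4:**
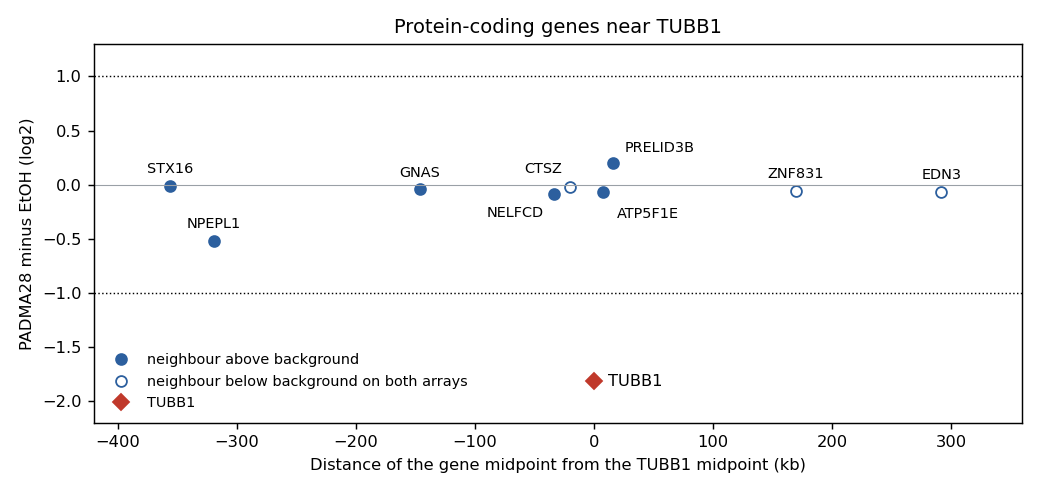
Log2 difference, PADMA28 minus EtOH (vertical axis), of TUBB1 (red diamond) and of 9 protein-coding genes around it, by the distance between gene midpoints in kb (horizontal axis), from 1 array per treatment. Filled circles are above background on both arrays, open circles are below it on both, and dotted lines mark 2-fold; TUBB1 lies at -1.81 and the neighbours lie between -0.52 and 0.20.

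The genes whose pair of values lay closest to that of TUBB1 were found by the Euclidean distance over the log2 values of the 2 arrays, a likeness over 2 points only that says nothing of amounts of RNA. The nearest was HAL, the histidine ammonia-lyase, at a distance of 0.31, with 9.48 with PADMA28 and 10.86 with EtOH. It was followed by PAQR8, a membrane progestin receptor, at 0.43, and by the homeobox gene MIXL1 at 0.48. FREM1, an extracellular matrix protein, followed at 0.60 and LGR5, a receptor of R-spondins in Wnt signaling, at 0.61. Their differences lay between -1.66 (LGR5) and -1.02 (FREM1), a range that the choice by closeness to the values of TUBB1 nearly fixes. Second probe sets of HAL, PAQR8 and LGR5 were at -1.35, -1.55 and -2.14, all above background on both arrays, while a further one of HAL and the other one of FREM1 were below background on both.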

How the data were processed

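The authors pooled the cells of 3 cultures per treatment, hybridised 1 array each and ran GCRMA on the scanned intensities, a method with a background model based on probe sequence, quantile normalization and median polish. The deposited values are log2 expression values of 54675 probe sets. Versions in the submitters' notes are 2.28.0 for GCRMA and 2.15.1 for R, while the paper gives other versions and a filter on probe sets, which was not applied here. The paper also gives a longer culture before treatment than the 6 h of the sample labels.

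The log2 difference is PADMA28 minus EtOH, as in the methods of the study, with 2-fold as limit. Genes were named from the platform annotation, updated by Entrez identifier through RefSeq (GRCh38.p14). Of the probe sets 41097 had 1 gene, 1801 several and 11777 were unnamed here. Background was the most frequent value (bins of 0.1) plus 2 log2 units, reached by 39.7% of probe sets with PADMA28 and 40.2% with EtOH. Spike-in controls for hybridisation, 18 probe sets, had differences between -0.15 and 0.10. Promoter windows came from RefSeq, where all 10 genes matched.

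The members and the 14 gene lists, with 163 of 175 entries measured, were chosen with earlier results of these data known. Named were the members, all other tubulins, in each list up to 3 genes above background whose difference was largest, the 5 genes nearest to TUBB1 and its neighbours. Other genes were named after their values were seen. No test was made, because 1 array per treatment gives no spread, and precision is limited by the number of arrays. The alternatives were other probe set rules, offsets of 16 and 64, centring, loess with a span of 0.3, repeated quantile normalization and filters on dim values. The steps were tested on simulated data. Calculations used pandas 2.3.3, numpy 2.4.6 and, for loess, statsmodels 0.14.6 under Python 3.11.15, with figures by matplotlib 3.10.9.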

Additional observations from a re-analysis of the deposited data

How the results depend on the processing

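The difference of TUBB1 stayed between -1.91 and -1.71 under the 9 alternatives for which it was computed. Leaving out _x_at and _s_at probe sets could not change it, as its brighter probe set is of neither type. Nor could counting shared probe sets, as TUBB1 has none, and taking the largest difference could only enlarge it. TUBB1 was the 1 member gene past 2-fold under each of 11 alternatives. The filters on dim values kept all 10 member genes, so they could not change this count. A difference was taken as moved when it changed by more than 0.14 log2 units, the median gap between probe sets of a gene. This limit was used since no spread between samples exists. Counts were judged by their ratio to the main count instead. The median difference of the member genes lay between -0.03 and 0.16, and moved only without the _x_at and _s_at probe sets, to -0.0296 over 5 genes. The other single members and the counts over all genes were recomputed as additions chosen after seeing the data. TUBB2B moved to 0.06 when the probe set it shares with TUBB2A was counted, TUBB6 stayed between 0.81 and 0.96, and TUBB2A between -0.42 and -0.36. Of all genes, 76 were more than 2-fold lower and 173 higher. Only counts that moved from these are given. With the largest probe set of each gene 153 were lower and 264 higher, with the median over probe sets 114 were higher, with 16 added to both linear values 97 were higher, and with 64 added 34 were lower and 64 higher. No paired analysis was possible because each treatment has 1 array. For the same reason no replicate could be left out. Genes below background have no usable fold change here.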

Other observations

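Tubulin pseudogenes were outside the comparisons. TUBBP5 was above background on both arrays, at 7.16 with PADMA28 and 7.14 with EtOH, a difference of 0.03. TUBA3FP and TUBB7P were below background on both arrays. CAMSAP3, a protein that binds microtubule minus ends and was named after its values had been seen, had differences of -0.53 and -0.71 on its 2 probe sets. TTLL12, a protein of the tubulin ligase-like family, had 0.51 and 0.60 on its 2 probe sets. None of these passed 2-fold.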
